A study of Mus musculus with 8 samples.

Results

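The scanner files deposited for 3 blood samples, called blood 1, blood 2 and blood 3 here, were set against the scanner files of the remaining 5 samples, blood 4 and spleen 1 to 4. The 3 were chosen because they did not match the columns that carry their names in the authors' value table. They were therefore picked by measured values, so every difference given here is a description of 3 files out of 8, and no significance test was run. Each sample was labelled as Ly-6C-high monocytes of healthy, untreated female C57BL/6 mice, aged 8 to 12 weeks and kept on chow, from blood in 4 samples and from spleen in 4. Cells were sorted from a group of 4 mice as high for CD11b and Ly-6C, low for I-Ab, CD11c and the macrophage antigen encoded by Adgre1, and low for Ly-6G, B220, CD90, NK1.1 and CD49b. A sample was 1000 cells, and 5 ng of its RNA was amplified, labelled with the dye Cy3 and hybridized to a 1-colour Agilent array. The design text says that both tissues came from each mouse, but no label ties a sample number to a mouse. All 8 samples share strain, sex, diet and sort gate, and the labels of the 3 files differ from that of blood 4 in their number alone.

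Ly-6C-high monocytes are short-lived phagocytes that leave the bone marrow through the chemokine receptor CCR2 and enter inflamed tissue. In the circulation some of them turn into Ly-6C-low monocytes, which patrol the vessel wall. Blood also carries B cells, which display antibody and MHC class II molecules, natural killer (NK) cells, which kill through granzymes and read MHC class I through Ly49 receptors, and rarer dendritic cells and basophils. The sort gate was built to leave all of these out, so their transcripts serve here as a check on what each file holds.

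The mismatch that defined the 3 files was plain over the whole array. Across probes, the rank correlation between a file's median spot signal and the table column of the same name was 0.842 for blood 1, 0.852 for blood 2 and 0.872 for blood 3. For each of the other 5 files it was 1 to 3 decimals. No other column matched the 3 files either, since the best one was spleen 4 for each, at 0.865, 0.874 and 0.898. The table's empty cells coincided with spots of outlying local background in 99.5% to 100% of cases for the 5 files, and in 9.43%, 29.6% and 16.9% for blood 1, 2 and 3. No source used here states which of the deposits holds the blood samples that were meant.

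**Figure D1:**
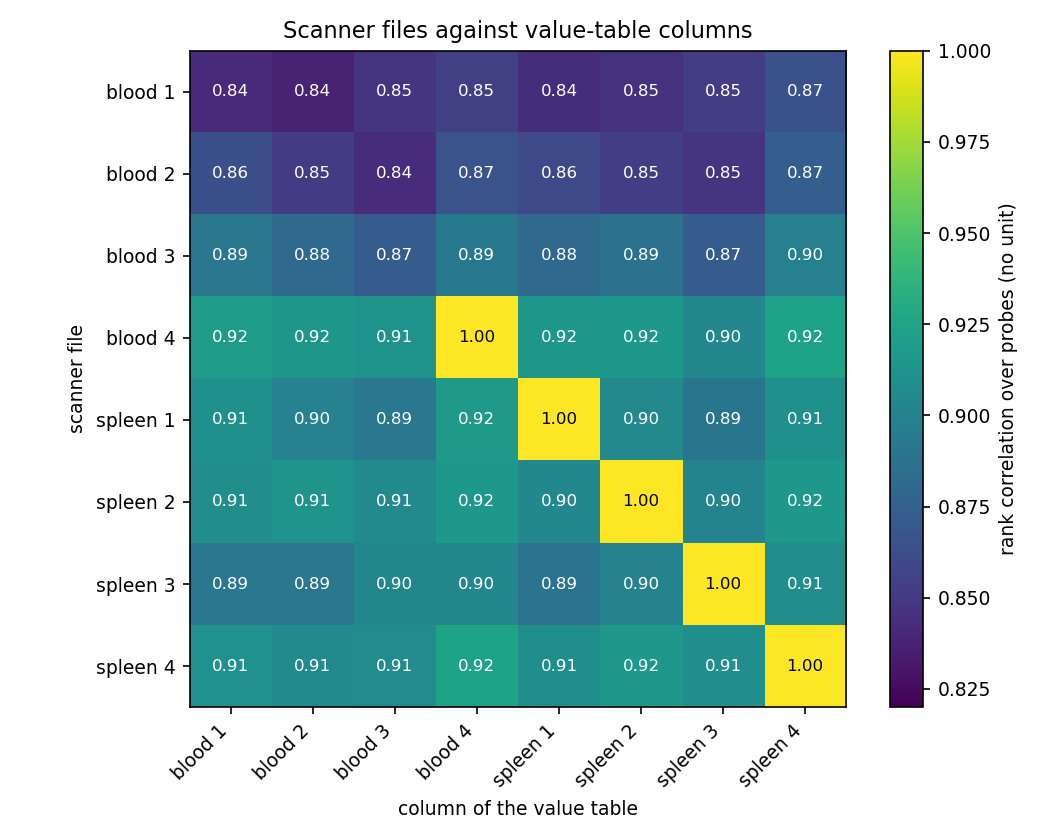
Rank correlation over probes of each scanner file (rows) with each column of the value table (columns), with the coefficient in each cell and colour running from 0.82 to 1. The files of blood 4 and spleen 1 to 4 reach 1 with their own column, and the rows of blood 1, blood 2 and blood 3 hold no such cell.

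Levels are given as log2 of the processed spot signal, from which the scanner software had taken local background, less the 75th percentile of that array, so a level of 0 equals that percentile. A gene was called higher in the 3 when all 3 values lay above all 5 others and the means differed by at least 1 on the log2 scale, which is 2-fold, and lower in the mirrored case. Of 23945 genes, 822 were called higher (3.43%) and 764 lower (3.19%), and the median difference of all genes was 0.08. Against blood 4 alone, all 3 files were at least 2-fold higher on average and each above it for 2380 genes (9.94%) and lower for 2556 (10.7%). Scaling on the median array signal instead gave 601 higher and 952 lower. Without blood 1, 2 or 3 the calls higher became 1631, 1410 or 1320 and the calls lower 1191, 1087 or 1304, as fewer values have to agree. Of the 822 calls higher, 781 had all 3 files well above background, and of the 764 calls lower, 746 had all 5. Where the dimmer side lay partly below background, the fold rests on values without a firm order, so folds are also given with every value under the highest array floor raised to it (the common floor). The shares of 3.43% higher and 3.19% lower are the background against which each gene list below is read.

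**Figure D2:**
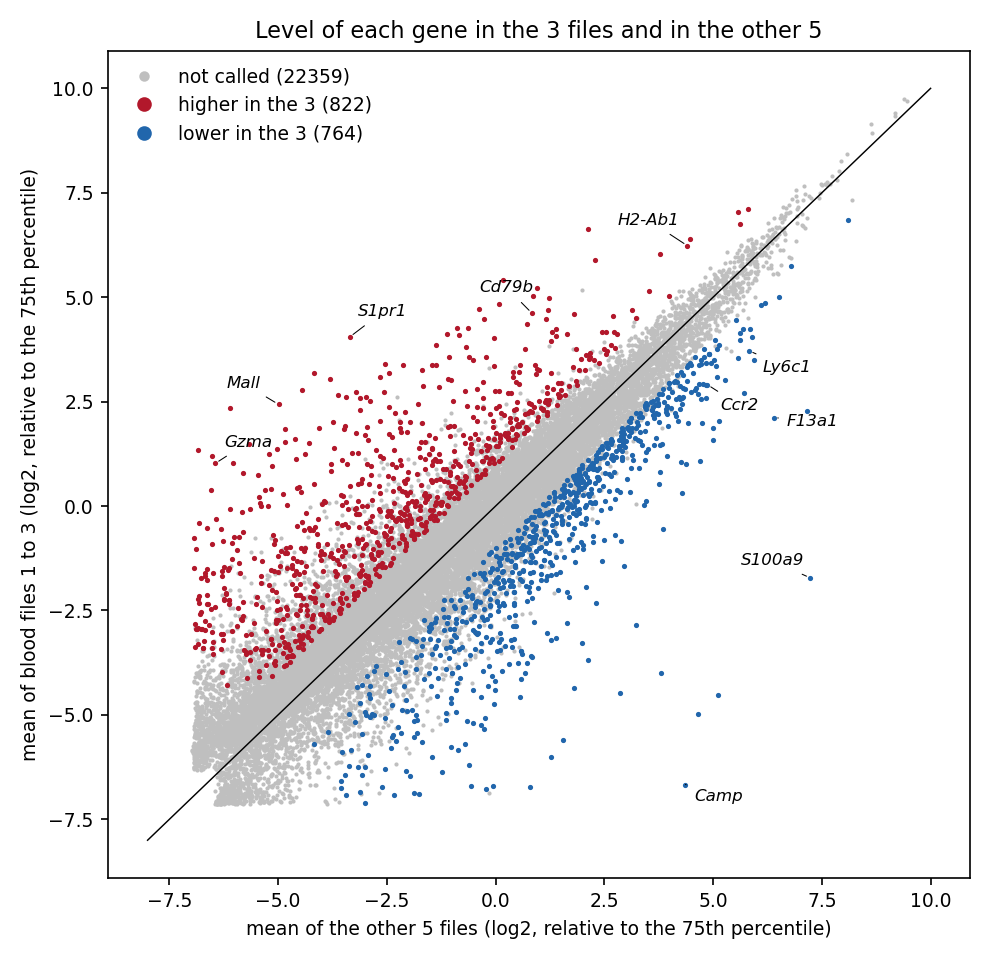
Mean level of each of the 23945 genes in blood files 1 to 3 (vertical axis) against the mean of the other 5 files (horizontal axis), both log2 relative to the 75th percentile of the array, with genes called higher in red and lower in blue. B cell, NK cell and MHC class II genes such as Cd79b, Gzma and H2-Ab1 lie above the diagonal, and Ly6c1, Ccr2, F13a1, S100a9 and Camp lie below it.

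The 3 files were less alike than the 5 were. Pearson correlations over genes ran from 0.843 to 0.868 between pairs of the 3, from 0.891 to 0.919 between pairs of the 5, and from 0.834 to 0.878 between a file of the 3 and a file of the 5. The arrays differed in brightness as well. The 75th percentile of the raw signal was 262 in blood 1, 613 in blood 2 and 593 in blood 3, against 381 to 650 in the 5. Blood 3 had the most probes that the scanner software marked as well above background, 32410, blood 1 the fewest, 25972, and blood 2 29870, against 26538 to 29569 in the 5. The part of brightness in the results was not tested.

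Genes of the Ly-6C-high monocyte were lower in all 3 files. Of 22 measured genes of that list, 19 were called lower and 0 higher; the median difference was -2.08. In bulk RNA of this kind, fewer cells of a type and less RNA per cell cannot be told apart. The list's median level was 2.15, 2.53 and 1.33 in blood 1, 2 and 3, and 4.13 to 4.97 in the 5, so the 2 sets of files did not overlap. Against blood 4 alone the median difference was -2.25. Some files share a slide. Blood 1 lay below spleen 3 by a median of -2.05, and the mean of blood 2 and blood 3 differed from spleen 1 by -2.35.

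Ccr2, the receptor that lets these monocytes leave the marrow, had levels of 3.41, 3.08 and 2.23 in blood 1, 2 and 3, 5.02 in blood 4, and 4.94, 4.77, 5.07 and 4.54 in spleen 1 to 4. Every value of the 3 lay below every value of the 5, and the difference was 3.89-fold. Ly6c1, which encodes the antigen of the sort, read 3.67, 3.21 and 4.27 in the 3, 6.33 in blood 4 and 6.04, 6.02, 5.19 and 5.54 in spleen 1 to 4, a 4.31-fold lower level. Its probe is named Ly6c in the files and may not separate Ly6c1 from the near-identical Ly6c2. Both genes stayed well above background in all 8 files, so monocyte transcripts were lower in the 3 and not absent.

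Larger gaps were seen in other genes of this subset. F13a1, a coagulation factor subunit, averaged 2.12 ± 0.75 (SD, n = 3) in the 3 files and 6.39 ± 0.11 (SD, n = 5) in the 5, which is 19.3-fold lower. Chil3, a chitinase-like protein, was 29.7-fold lower, at 1.35, 3.04 and 2.43 against 6.66 to 7.84. Fn1, the matrix protein fibronectin, was 10.7-fold lower and Mmp8, a collagenase also found in neutrophil granules, 56-fold lower. The proteoglycan gene Vcan and the detoxifying enzyme gene Mgst1 had differences of -3.90 and -3.71, that of Vcan being -2.93 with the common floor. Blood 3 was the lowest of the 3 for Ccr2 and Fn1 and blood 1 for F13a1, Chil3 and Mgst1, so no single file was lowest throughout.

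The core genes of monocytes moved less. Of 25 measured genes, 11 were lower and 0 higher; the median difference was -1.02 (within slides, -0.98 and -1.097). Csf1r, the receptor for the growth factor that monocytes depend on, was not called: it read 4.34, 3.88 and 3.0 in the 3, 4.20 in blood 4, and 4.70, 4.25, 3.98 and 4.36 in spleen 1 to 4. Its values overlapped, with blood 1 inside the range of the 5 and blood 2 and 3 below it. Fcgr1, the high-affinity IgG receptor, was called lower at 0.70, 1.82 and 0.47 against 4.01 to 4.92, a 10.4-fold difference. The lipopolysaccharide co-receptor Cd14 differed by -1.59, the transcription factor Cebpa by -2.15 and the G-CSF receptor Csf3r by -2.19. A group of membrane genes named Ms4a4 or Ms4a6, looked at after their values were seen, was lower for 7 of 7 names in the files, with a median of -1.80. The 7 names stand for 6 genes, as Ms4a6d appears under 2 of them.

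Genes of Ly-6C-low monocytes were split, with 9 of 26 higher, 1 lower and 16 not called, and a median difference of 0.66. The list's median level overlapped between the sets, at 3.65, 3.96 and 3.36 in blood 1, 2 and 3 and 2.68 to 3.71 in the 5. Its genes lay a median of 0.98, 0.85 and 0.09 above the 5 in blood 1, 2 and 3. Cx3cr1, Nr4a1, Spn, Ace, Treml4 and Itgal were not called, Clec4a1 was lower, and 8 of the 26 differed by less than 0. The genes described next were all called higher. Within slides the median was 0.72 and 0.31. Itgax, which encodes CD11c, read 3.31, 3.36 and 1.74 in the 3, -2.82 in blood 4, and -0.63, 0.65, -0.51 and 1.23 in spleen 1 to 4. It lay above all 5 in each of the 3, and the antigen was one that the gate selected against. Cd36, a scavenger receptor, was 6.46-fold higher and Cd300e, an activating receptor of monocytes, 7.05-fold higher. The muscle-type enolase gene Eno3 was 4.79-fold higher, at 6.39, 6.16 and 5.55 against 3.01 to 4.25, and the fatty acid binding protein gene Fabp4 5.33-fold higher. Pparg, a nuclear receptor, was high in 1 file: it read 3.48 in blood 1 and -0.12 and -0.14 in blood 2 and 3, against -1.95 to -0.88. Itgax is also a dendritic cell gene and is counted in that list too.

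**Figure D3:**
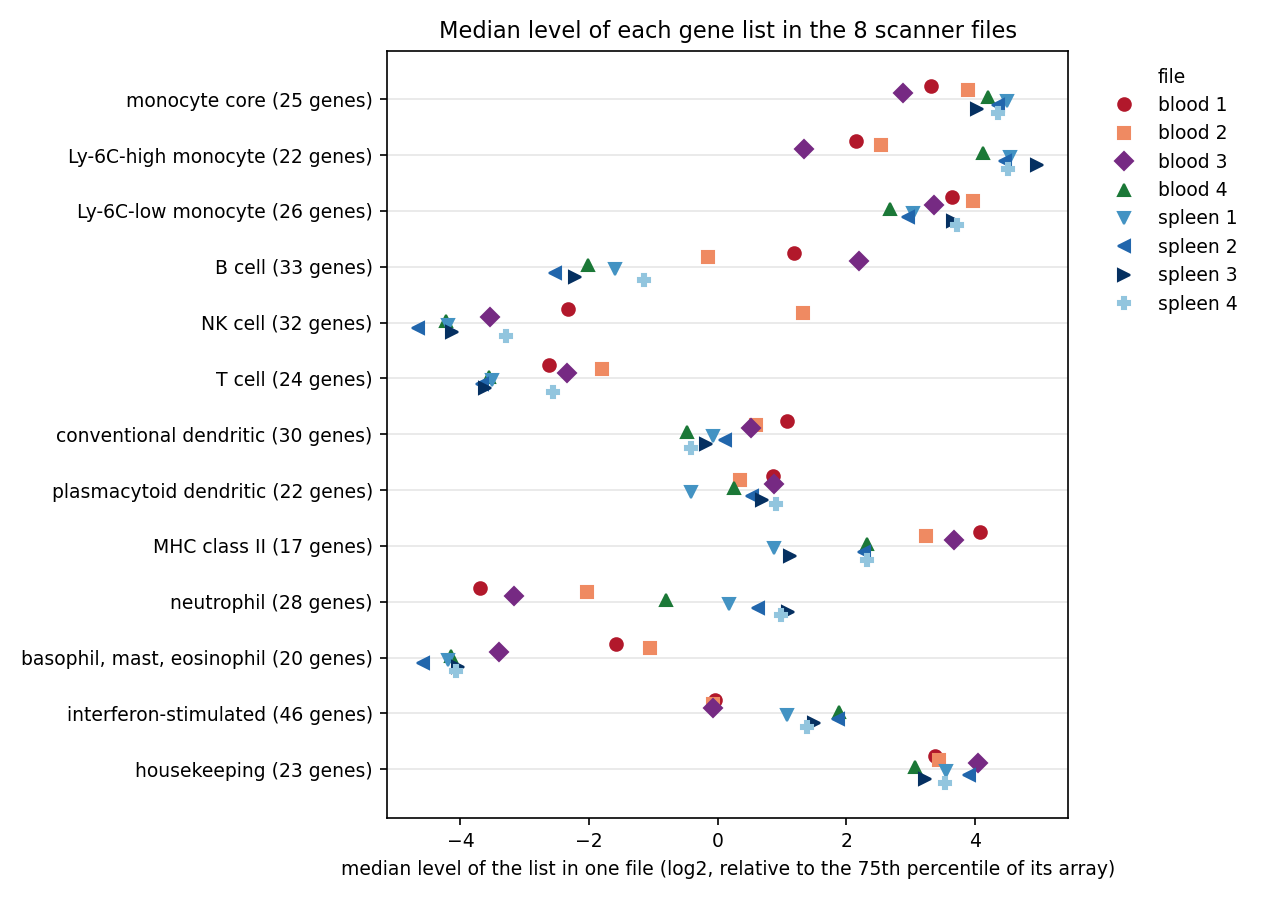
Median level of 13 gene lists (rows, with the number of measured genes) in each of the 8 scanner files, in log2 relative to the 75th percentile of the array, with 1 symbol per file. The 3 files lie left of the 5 for the monocyte core, Ly-6C-high, neutrophil and interferon lists and right of them for the B cell, conventional dendritic and MHC class II lists, and blood 2 stands alone at 1.32 for NK cell genes.

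Neutrophil granule genes gave the largest differences towards the 5 files. Of 28 measured genes of the neutrophil list, 13 were lower in the 3 and 0 higher. Among the 13, Chil3, Mmp8 and Cd177 are also counted in the Ly-6C-high list and Csf3r in the monocyte core list. The median difference of the neutrophil list was -2.12. Within slides it was -3.64 for blood 1 against spleen 3 and -1.79 for blood 2 and 3 against spleen 1. S100a8, a subunit of calprotectin, read -6.30, -1.76 and -6.89 in the 3, 0.52 in blood 4, and 5.23, 5.01, 6.73 and 5.84 in spleen 1 to 4. Blood 4 stood between the 3 and the spleen files, so for this gene the gap to blood 4 is the smaller one.

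The same order held for its partner S100a9, at -0.68, 0.31 and -4.79 in the 3, 4.39 in blood 4 and 7.37 to 9.21 in spleen. Camp, which encodes the antimicrobial peptide cathelicidin, was well above background in none of the 3 and in all 5, and the difference was at least 586-fold, or 350-fold with the common floor. Ngp, a granule protein, was 802-fold lower and Ltf, the iron-binding lactotransferrin, 225-fold lower. The list's median level was -3.70, -2.03 and -3.17 in blood 1, 2 and 3, -0.80 in blood 4 and 0.17 to 1.09 in spleen. Blood 2 held 6 neutrophil genes at least 4-fold above both blood 1 and blood 3.

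Interferon-stimulated genes, which cells switch on in response to type I and type II interferon, were lower in the 3 files. Of 46 measured genes, 17 were lower in the 3 and 0 higher, and the median difference was -1.56 (within slides, -1.05 and -1.38). The list's median level was nearly the same in the 3, at -0.05, -0.07 and -0.08, and ran from 1.08 to 1.89 in the 5. Isg15, a ubiquitin-like modifier, read -2.01, -1.62 and -1.41 in the 3, 1.81 in blood 4, and -0.16, 1.92, 0.38 and 1.94 in spleen 1 to 4. The lowest of the 5 was spleen 1, still above all of the 3. Ifit3, which binds viral RNA complexes, was 20.9-fold lower, the chemokine gene Cxcl10 29.6-fold lower (12.4-fold with the common floor) and the antiviral enzyme gene Rsad2 6.02-fold lower. The oligoadenylate synthetase family genes Oas2 and Oasl2 differed by -2.97 and -3.23. Since blood 4 had the highest list median of the 8, at 1.89, the gap was wider against blood 4 alone, at -1.87.

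The promoters of 4 of these genes are shown because the genes were low together and share the core of the interferon-stimulated response element, the site read by the STAT and IRF factors. They are the 250 bases before the RefSeq start, read 5′ to 3′ on the gene's strand, with every match to TTTC, any 2 bases and TTTC again in capitals, on either strand (as GAAA, any 2 bases and GAAA on the opposite one).
Ifit3 promoter, GRCm38.p6 chr19:34583279-34583528, plus strand: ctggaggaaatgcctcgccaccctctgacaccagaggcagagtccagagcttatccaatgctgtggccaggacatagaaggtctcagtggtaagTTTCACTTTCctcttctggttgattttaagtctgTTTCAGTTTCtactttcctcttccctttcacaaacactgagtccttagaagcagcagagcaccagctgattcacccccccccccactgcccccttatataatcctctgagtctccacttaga
Isg15 promoter, GRCm38.p6 chr4:156200819-156201068, minus strand: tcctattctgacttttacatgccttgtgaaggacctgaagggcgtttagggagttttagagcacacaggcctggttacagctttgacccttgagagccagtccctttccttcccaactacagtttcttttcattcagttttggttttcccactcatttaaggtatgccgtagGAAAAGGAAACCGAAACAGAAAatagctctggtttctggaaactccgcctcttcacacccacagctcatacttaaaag
Rsad2 promoter, GRCm38.p6 chr12:26456453-26456702, minus strand: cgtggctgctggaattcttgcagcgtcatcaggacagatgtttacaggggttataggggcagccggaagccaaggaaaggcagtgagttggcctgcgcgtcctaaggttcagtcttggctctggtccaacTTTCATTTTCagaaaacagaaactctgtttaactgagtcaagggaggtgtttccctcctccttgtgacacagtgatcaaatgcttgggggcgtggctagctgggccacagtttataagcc
Cxcl10 promoter, GRCm38.p6 chr5:92348890-92349139, minus strand: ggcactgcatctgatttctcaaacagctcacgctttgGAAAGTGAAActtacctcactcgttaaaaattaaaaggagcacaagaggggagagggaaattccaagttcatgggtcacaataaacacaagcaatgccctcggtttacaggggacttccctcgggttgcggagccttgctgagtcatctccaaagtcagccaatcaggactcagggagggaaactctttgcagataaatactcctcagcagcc
Isg15 holds 3 overlapping matches, Ifit3 holds 2 separate ones, and Rsad2 and Cxcl10 hold 1 each. The motif occurred in 2.98% of 32851 promoter windows of this length and in 16 of the 33 list genes with a window (48.5%). Of the 16 genes with a match, 9 were lower in the 3 files, and of the 17 without a match, 2 were lower and 1 was not measured. A match of letters is a description of the window and no evidence of binding.

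B cell genes had the largest share of genes higher in the 3 files among the 21 lists. Of 33 measured genes, 19 were higher and 0 lower. The median difference was 3.17, and 32 had a mean above that of the 5. The list's median level was 1.18, -0.16 and 2.19 in blood 1, 2 and 3 and -2.53 to -1.14 in the 5. Within slides the median difference was 3.07 and 2.51, and against blood 4 it was 3.34. Of the 33 genes, 27 to 31 were well above background in each of the 5, so B cell transcripts were measurable there as well.

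Cd79b, a signalling chain of the B cell receptor, read 5.15, 3.46 and 5.24 in the 3, 0.65 in blood 4, and 1.24, 1.08, 0.02 and 1.20 in spleen 1 to 4. All 3 files lay above the 5, by 13.7-fold on average, and blood 2 was the lowest of the 3. Ms4a1, which encodes CD20, read 2.99, 1.74 and 4.55 against -4.01 to -1.56, a 54.1-fold difference. Pou2af1, a B cell coactivator, was 38-fold higher, at 5.76, 4.25 and 6.21 against -0.72 to 1.89. The inhibitory receptor gene Cd22 was 39.7-fold higher, at 2.74, 1.92 and 3.56 against -4.61 to 0.22. For all 4 of these genes the order was the same: blood 3 highest, blood 1 next, blood 2 lowest of the 3.

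Fcrla, an Fc receptor-like protein of B cells, broke that order, with 4.77 in blood 1, -2.11 in blood 2 and 0.45 in blood 3, and -6.93 to -3.73 in the 5, of which 1 was well above background. Its difference was 7.08, or 5.05 with the common floor. The survival receptor gene Tnfrsf13c (BAFF receptor) differed by 4.82, the IgM Fc receptor gene Fcmr, named Faim3 in the files, by 4.96 and the class II chaperone gene H2-Ob by 5.38 (4.64 with the common floor). Spleen 4 was the highest of the 5 for Cd22, Pou2af1, Fcrla and Tnfrsf13c. Antibody chain probes, gathered by their description after values were seen, were higher in 60 of 93 and lower in none, with a median of 3.40. These chains are near-copies of each other, so the 60 are not independent. Among 9 plasma cell genes, 1 was higher: Mzb1, a chaperone for antibody, at -0.11, 1.24 and 1.91 against -3.68 to -2.20. Jchain, the joining chain of IgM and IgA, was not called, since it read 3.26 and 3.48 in blood 1 and 2 but -5.23 in blood 3.

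MHC class II genes, which B cells and dendritic cells express at high levels, were higher in 7 of 17 cases and lower in 0, with a median of 1.105. This median fell to 0.63 without spleen 1 and was 1.89 and 1.05 within slides, where blood is set against spleen. Against blood 4 alone, the same labelled tissue, it was 0.74. H2-Ab1, the beta chain of the I-Ab molecule that the gate selected against, read 6.81, 6.00 and 5.89 in the 3, 4.20 in blood 4, and 3.32, 4.91, 4.53 and 5.10 in spleen 1 to 4. It was above the range of the 5 in every one of the 3, by 3.53-fold on average, and was also bright in all 5. H2-Eb1, a beta chain of I-E, was 13.4-fold higher and H2-Aa, the partner of H2-Ab1, 3.77-fold higher. The invariant chain gene Cd74 differed by 1.31 and H2-Oa, which tunes peptide loading, by 2.76. Blood 1 was the highest of all 8 files for H2-Ab1, H2-Aa, H2-Eb1, H2-Oa and Cd74.

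The promoters of H2-Aa and H2-Eb1 are shown because class II genes are switched on together through a shared module whose Y box, CTGATTGG, is bound by the factor NF-Y; it is in capitals, searched on both strands, and the windows are as above.
H2-Aa promoter, GRCm38.p6 chr17:34287824-34288073, minus strand: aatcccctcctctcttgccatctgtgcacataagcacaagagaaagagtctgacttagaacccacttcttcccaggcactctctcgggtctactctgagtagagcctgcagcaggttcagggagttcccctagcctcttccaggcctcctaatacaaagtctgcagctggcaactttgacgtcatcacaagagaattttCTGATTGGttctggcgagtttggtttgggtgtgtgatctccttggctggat
H2-Eb1 promoter, GRCm38.p6 chr17:34305617-34305866, plus strand: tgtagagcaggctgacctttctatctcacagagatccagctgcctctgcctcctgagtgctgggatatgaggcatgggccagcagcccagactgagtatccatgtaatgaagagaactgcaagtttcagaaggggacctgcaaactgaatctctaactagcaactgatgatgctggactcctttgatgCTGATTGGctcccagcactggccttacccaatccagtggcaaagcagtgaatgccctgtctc
The Y box lay 51 bases before the RefSeq start in H2-Aa and 62 before it in H2-Eb1, counted from its first base. It occurred in 3.83% of the 32851 windows and in 4 of the 12 class II list genes with a window, of which 3 were higher in the 3 files. Of the list genes whose window lacked it, 2 were higher and 6 were not called. Here too a match of letters is no evidence of binding.

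Conventional dendritic cell genes were higher in 5 of 30 cases and lower in 1, with a median of 0.75 (within slides, 1.011 and 0.61). Clec9a, a receptor of cross-presenting dendritic cells, read -0.49, -1.75 and -1.34 in the 3, -6.83 in blood 4, and -3.58, -3.10, -5.96 and -5.50 in spleen 1 to 4. Only 2 of the 5 files were well above background for it, and with the common floor the difference was 6.03-fold. Cd209a, which encodes a DC-SIGN-like lectin, differed by 2.11, Cd24a by 1.62 and H2-DMb2, a peptide exchange subunit, by 2.48, while the amidase gene Naaa was lower by -1.08. Of these, H2-DMb2 and Cd24a are also expressed by B cells. Irf8, the factor that dendritic cells share with monocytes and B cells, overlapped between the sets, at 3.69, 3.85 and 2.19 against 2.87 to 3.65, and its 2 probes differed in sign.

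Plasmacytoid dendritic cell genes did not separate the 3 files as a set, with 1 of 22 higher and 1 lower and a median of 0.60 (within slides, 0.75 and 0.55). The higher gene was Spib, a factor also made by B cells, with a difference of 3.17, and the lower one was the RNA sensor gene Tlr7, with -1.79. Siglech, a surface marker of these cells named here after its values were seen, read 0.13 in blood 1, -6.30 and -7.52 in blood 2 and 3, -7.14 in blood 4, and -6.85, -6.71, -6.62 and -5.35 in spleen 1 to 4. It was well above background in blood 1 alone. Lag3, an inhibitory receptor found on these cells and on T cells, had the same pattern, with 1.25 in blood 1 and -7.17 to -5.90 in the other 7 files.

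**Figure D4:**
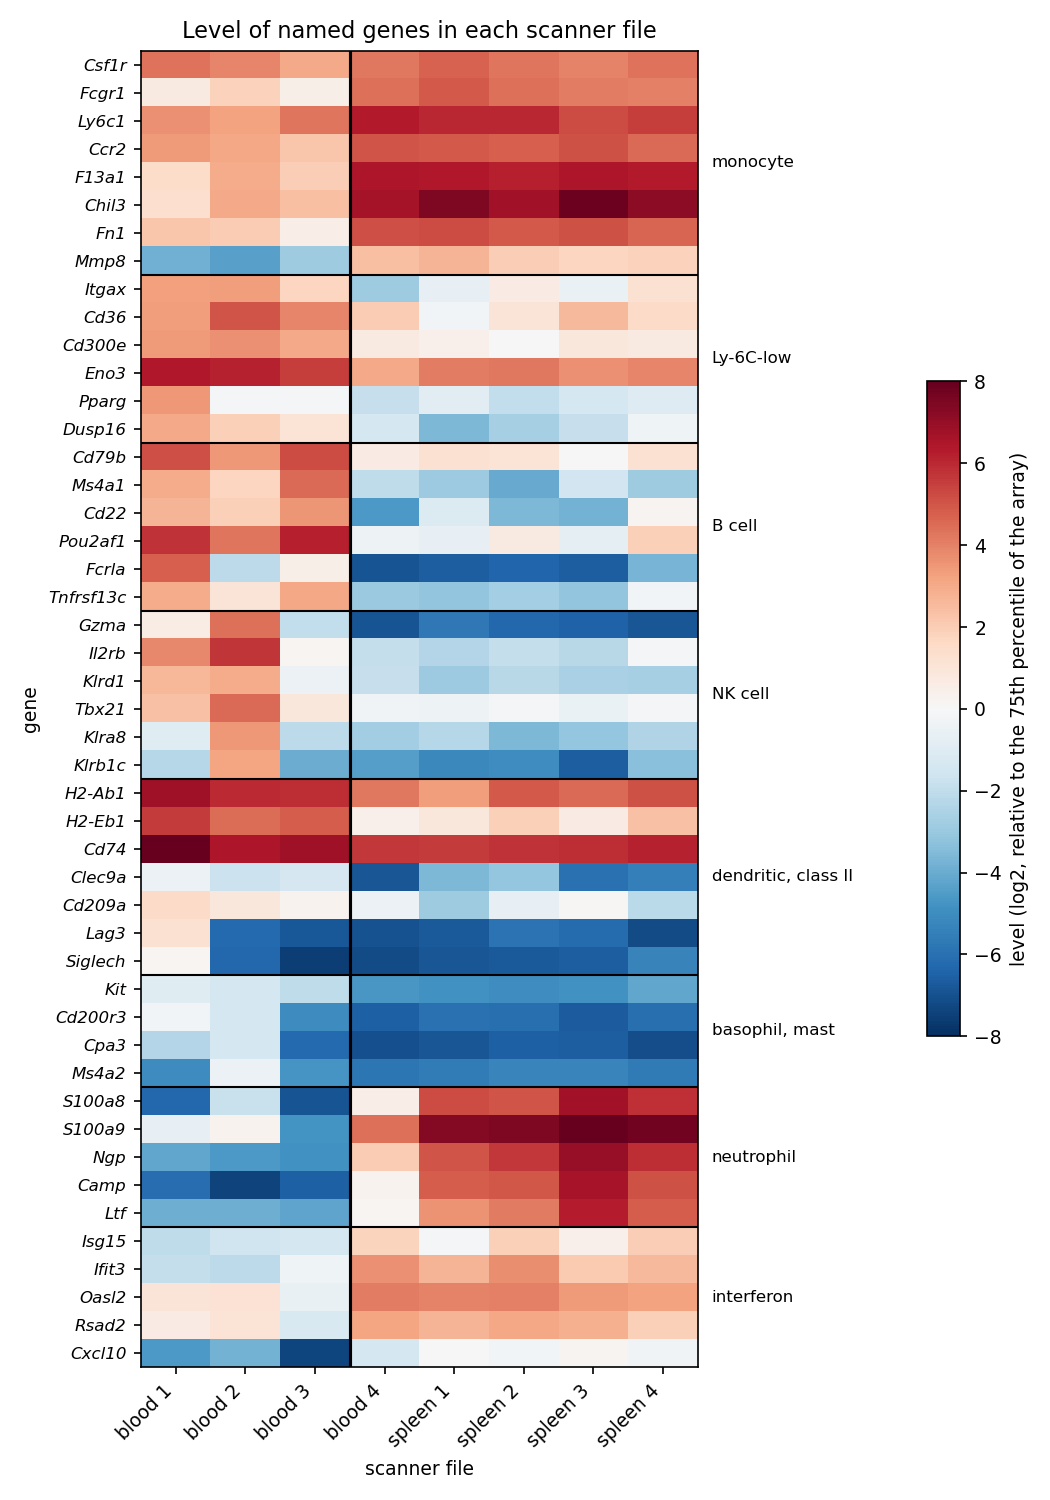
Level of 47 named genes (rows, grouped by cell type) in each of the 8 scanner files (columns), in log2 relative to the 75th percentile of the array, with red above and blue below that percentile and levels past 8 in the darkest colour. Left of the vertical line, blood 1 to 3 are redder for B cell, Ly-6C-low and class II genes and bluer for neutrophil and interferon genes, and Klrb1c, Klra8 and Gzma are brightest in blood 2.

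NK cell genes set blood 2 apart. Of 32 measured genes, 8 were higher in the 3 and 0 lower, with a median of 1.99 (within slides, 1.87 and 2.59). Of the 8, 6 had all 3 files well above background, while the calls of Gzmb and Klra1 rest partly on the order of values below it. The median level was 1.32 in blood 2 and -2.32 and -3.54 in blood 1 and 3, against -4.65 to -3.29 in the 5, so blood 3 lay inside the range of the 5. Without blood 2 the median difference was 1.17. All 32 genes were well above background in blood 2, 22 in blood 1, 25 in blood 3 and 13 to 22 in each of the 5. These counts depend partly on the filter, which kept a gene well above background on at least 1 array, so blood 2 alone could admit it. With at least 3 arrays required, 25 NK genes remained, with a median difference of 2.54. In blood 2, 26 of the 32 were at least 4-fold above the mean of the 5, against 8 in blood 1 and 3 in blood 3. Over all 23945 genes, the same count was 1246 in blood 2, 1427 in blood 1 and 1082 in blood 3.

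Gzma, a granzyme, read 0.62, 4.42 and -1.98 in the 3 and -6.91 to -5.74 in the 5, where it was well above background in none, so the difference was at least 52.9-fold, or 34.4-fold with the common floor. Il2rb, the shared chain of the interleukin-2 and interleukin-15 receptors, read 3.83, 5.75 and 0.19, against -2.36 to -0.08. The T-box factor gene Tbx21 read 2.32, 4.51 and 0.91, against -0.52 to -0.12. All of these genes were highest in blood 2, next in blood 1 and lowest of the 3 in blood 3. Klrd1, which encodes the CD94 subunit, had its 2 highest values close together, at 2.66 in blood 1 and 2.98 in blood 2.

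Klrb1c, which encodes NK1.1, an antigen the gate selected against, read -2.29, 3.18 and -3.97 in the 3, -4.41 in blood 4, and -5.16, -4.94, -6.58 and -3.36 in spleen 1 to 4. It was not called, because blood 3 lay below spleen 4. The Ly49 receptor genes Klra7, Klra8 and Klra9 read 4.13, 3.47 and 3.43 in blood 2, and each was at least 4-fold above blood 1 and blood 3. Of 19 probes with Klra names, grouped after values were seen, 17 were set apart in blood 2 in this way. These genes are close relatives, and whether a probe reads more than 1 of them was not tested. Gzmb was well above background in none of the 5 and read 1.54 in blood 2 and -2.40 and -6.07 in blood 1 and 3.

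Basophil, mast cell and eosinophil genes were higher in 7 of 20 cases and lower in 0, with a median of 1.31 (within slides, 1.90 and 1.12). Of the 7, 5 had all 3 files well above background, while the calls of Cpa3 and Ms4a2 rest partly on the order of values below it. Without blood 3 the median was 2.19, as the level was -1.58, -1.05 and -3.40 in blood 1, 2 and 3 and -4.58 to -4.03 in the 5. Kit, the stem cell factor receptor, was 9.30-fold higher (6.11-fold with the common floor). Cd200r3, an activating receptor of basophils and mast cells, read -0.25, -1.40 and -5.00 in the 3 and was well above background in none of the 5, an at least 5.61-fold difference. Cpa3, a mast cell protease, read -2.34 and -1.39 in blood 1 and 2 and -6.20 in blood 3, below background there. Ms4a2, a chain of the IgE receptor, was well above background in blood 2 alone, at -0.46.

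T cell genes were higher in 2 of 24 cases and lower in 0, with a median of 0.37. The 2 were Cd247, the zeta chain that NK cells use too, with a difference of 2.25 that fell to 1.02 with the common floor, and Ctla4, an inhibitory receptor, at least 9.27-fold higher (6.03-fold with that floor), with -1.54, -3.72 and 0.78 in the 3. Cd3e, a defining T cell receptor chain, read 0.01, -0.39 and -0.97 against -1.97 to 1.77, and Cd4 0.37, 0.76 and 0.67 against 0.21 to 0.56. Of 19 red cell genes 1 was higher and 0 lower, and of 24 platelet genes 1 was higher and 1 lower. Haemoglobin transcripts were lowest of the 3 in blood 3, where Hba-a1 read -0.32, against 3.77 and 4.82 in blood 1 and 2 and -2.34 to 2.69 in the 5.

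The macrophage (23 genes), cell division (39) and early response (29) lists each had 1 gene called in either direction. These shares, 4.35% lower, 2.56% lower and 3.45% higher, were near those over all genes, 3.19% lower and 3.43% higher. The genes were Axl, a receptor for dying cells, lower by -2.79, Aurkb, a mitotic kinase, lower by -3.64 (-2.28 with the common floor), and Myc, higher by 1.36. Of 23 housekeeping genes, 0 were called, with a median difference of 0.05. B2m read 6.44, 6.12 and 5.72 in the 3 and 6.19 to 6.42 in the 5, and Actb 8.80, 7.47 and 7.17 against 7.65 to 8.41. Actb was highest in blood 1, the array with the lowest raw signal.

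The antigens of the sort gate can be read at the RNA level for 9 genes. The 2 antigens meant to be high, Itgam (CD11b) and Ly6c1, were both lower in the 3, by -1.02 and -2.11. Of those meant to be low, Itgax and H2-Ab1 were higher, by 3.22 and 1.82. Adgre1, whose product the gate selected against, was not called and read 2.44, 3.83 and 2.33 against 3.77 to 4.48, with blood 2 inside that range. Thy1, which encodes CD90, and Itga2, which encodes CD49b, overlapped between the sets, at -5.51 to -2.50 and -5.06 to -3.10 in the 3. Ptprc, whose B220 form a single probe cannot read, was at 4.59 to 5.20 against 5.34 to 5.70. RNA levels do not give surface protein, so these values describe transcripts only.

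Each of the 3 files also had genes of its own. A gene counted as set apart when 1 file lay at least 4-fold, or 2 on the log2 scale, above both others of the 3, or below both. Blood 1 had 729 genes set apart higher (3.04%) and 494 lower (2.06%), blood 2 had 539 (2.25%) and 674 (2.81%), and blood 3 had 548 (2.29%) and 244 (1.02%). Of the genes set apart higher, 84.2% in blood 1, 87.2% in blood 2 and 65.1% in blood 3 were also above all 5 other files. The number of genes at least 4-fold above all 7 other files was 263, 243 and 144 in blood 1, 2 and 3, and 42 to 99 in the 5.

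Counted by list, blood 2 and blood 3 differed most in NK and B cell genes. Blood 2 had 20 of 32 NK genes set apart higher and 8 of 33 B cell genes set apart lower. Blood 3 had the opposite pattern, with 8 B cell genes set apart higher and 9 NK genes lower, and its B cell genes lay a median of 4.40 above the 5, against 3.06 in blood 1 and 2.27 in blood 2. Blood 3 was also low for 6 of 20 basophil and mast cell genes, 7 of 23 macrophage genes and 5 of 29 early response genes. Blood 1 had 2 of 22 plasmacytoid dendritic cell genes set apart higher and 1 lower. Its median level for that list, 0.85, was below that of blood 3 (0.88) and spleen 4 (0.91).

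Single genes set apart most strongly fell both on these lists and outside them. In blood 1, Crb3, a polarity protein gene, read 1.67 against -6.86 and -6.84 in blood 2 and 3, the kinase gene Plk3 1.56 against -7.04 and -6.33, and Acot2, a mitochondrial thioesterase gene, 2.87 against -3.30 and -7.50. In blood 2, Lmo7 read -5.00 against 2.53 and 3.63 by the brightest of 4 probes that disagreed widely in size. Ralgps2, a gene of the B cell list, read -5.09 there against 0.86 and 1.27. In blood 3, the nuclear receptor gene Nr1i2 read 0.95 against -3.97 and -3.67. Lower in blood 3 were the chemokine gene Ccl3, at -7.14 against 2.09 and 1.98, Rgs1, a brake on chemokine receptor signalling, at -4.43 against 2.68 and 1.98, and Il18r1, an interleukin-18 receptor chain that NK cells and basophils carry, at -7.36 against 0.96 and 1.35. Marco and Vcam1, markers of splenic macrophages, and the histamine enzyme gene Hdc read -1.19, -5.46 and -6.22 in blood 3, against 5.03, 1.55 and 1.42 in blood 1 and 6.18, 1.54 and 1.46 in blood 2.

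**Figure D5:**
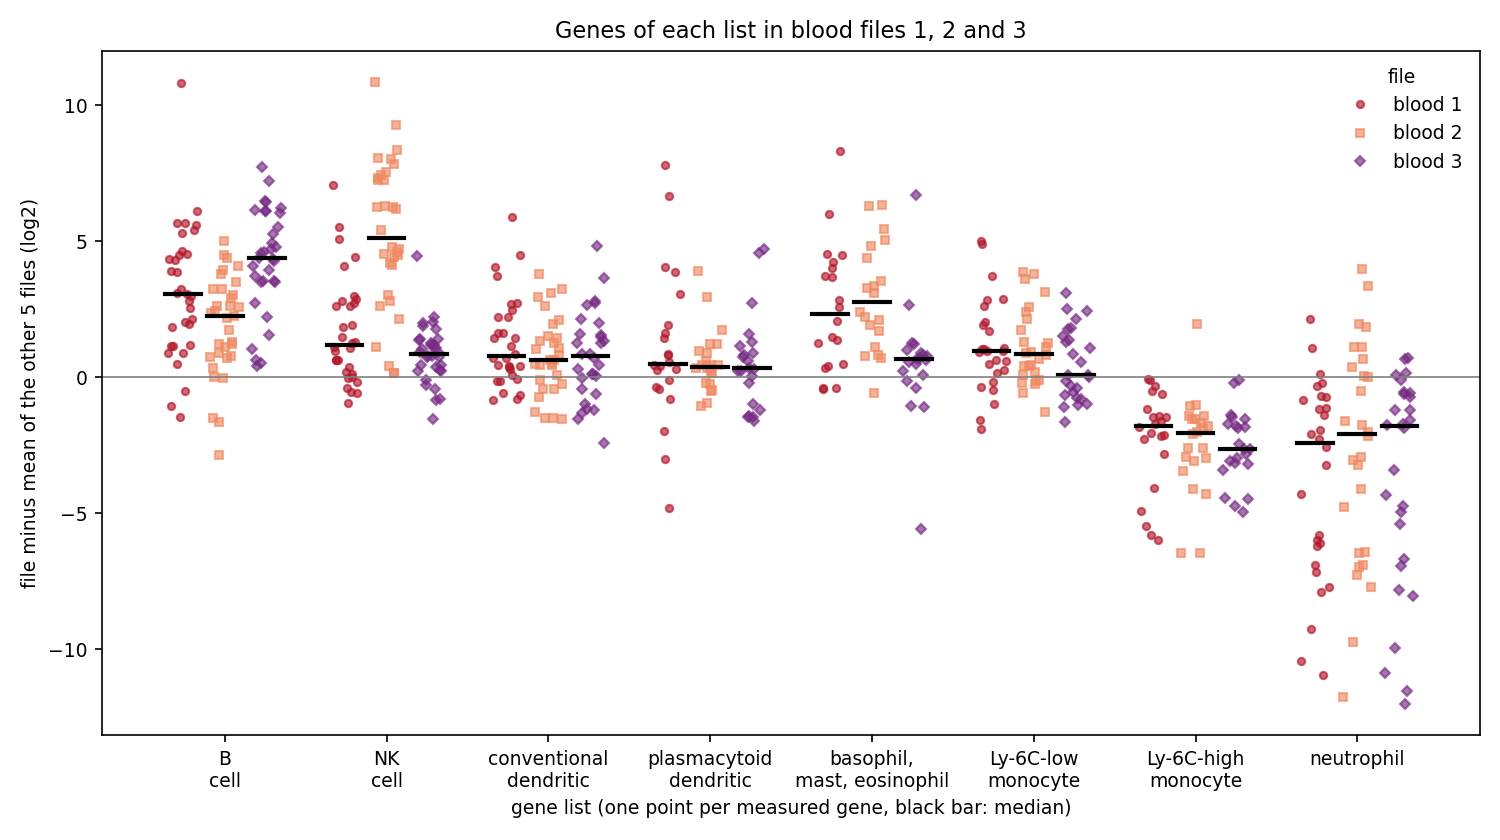
Level of each measured gene of 8 lists in blood file 1, 2 or 3 minus its mean in the other 5 files (log2), with 1 point per gene and a black bar at the median. For NK genes the bar stands at 5.11 in blood 2 and at 1.19 and 0.85 in blood 1 and 3, whereas B cell genes are highest in blood 3 and Ly-6C-high genes are below 0 in all 3.

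The genes with the largest differences overall fell into the same groups with some additions. Among the 12 highest, S1pr1, the sphingosine receptor by which lymphocytes leave lymphoid organs, read 4.08, 3.16 and 4.90 in the 3, -0.97 in blood 4, and -4.65, -6.59, -3.75 and -0.81 in spleen 1 to 4. Gimap3 and Gimap4, lymphocyte survival GTPases, were 152-fold and 141-fold higher, and 6 of 7 genes with Gimap names, grouped after values were seen, were higher. Mall, a membrane traffic protein gene, was 172-fold higher, Snn 166-fold and Phlda3, an inhibitor of Akt signalling, 83.8-fold. These 6 genes were well above background in 1 to 3 of the 5 files, so the size of their folds rests on dim values. With the common floor they came to 110-fold for S1pr1, 61.6-fold for Gimap3, 41.9-fold for Gimap4, 90.9-fold for Mall, 74.9-fold for Snn and 43.9-fold for Phlda3. The other probe of Snn differed by only 0.75 on the log2 scale. Among the 12 lowest, besides granule genes, were Rspo1, a Wnt agonist gene, 143-fold lower (49.8-fold with the common floor), the lectin receptor gene Clec4d, and Ms4a8a, with differences of -6.16 and -7.29 (-5.39 and -5.37 with that floor).

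The columns of the value table that carry the names of the 3 samples did not show most of these programs. In the authors' deposited table, on its own log2 scale, B cell genes had a list median of 7.79, 7.39 and 7.54 for blood 1, 2 and 3 and 7.39 to 8.29 for the 5, and the NK list 6.65, 6.55 and 6.73 against 6.68 to 7.01. The Ly-6C-high list read 11.5, 12.8 and 12.7 against 12.4 to 13.3, and the interferon list 10.5, 11.1 and 11.1 against 10.1 to 10.9. The neutrophil list was the exception, at 7.79, 7.92 and 8.37 against 8.60 to 9.53, lower in the 3 columns as in the 3 files. The call rule gave 55 genes higher and 93 lower in the 3 named columns. It was run there without bounds for dim genes and only on genes with no empty cell. These counts thus come from a different gene set than those of the scanner files. In the 5 files the table ranked probes as the signal without background subtraction does. Scanner files read without that subtraction gave 595 genes higher and 637 lower of 23945. The contents of the scanner files and of the table for these 3 names thus differed in several cell programs as well as in rank.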

How the data were processed

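RNA of 8 sorted samples was measured on 1-colour arrays. The deposited scanner files hold spot intensity values made, per the file headers, by Agilent Feature Extraction 9.5.1.1, with local background subtraction, spatial and multiplicative detrending and no normalization between arrays. The deposited value table is on a log2 scale. Per the submitters' processing notes it involved limma, with no version named. Probe positions are on the build mm7, and no exon annotation was used here.

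Control spots (any non-zero control type) and outlier-flagged spots were left out. Log2 of the processed signal minus each array's 75th percentile was taken for 41174 probes, of which 35128 were well above background on at least 1 of the 8 arrays. The brightest probe stood for each name, giving 23945 genes. RefSeq accessions named 22951 probes, and 18223 kept the name in the file. Among 49 genes named here with several probes, 7 had probes of opposite sign, none of them called. A gene well above background on no array of 1 side was given a bound against the lowest well-detected signal of each array or its own if higher ("at least"). Fold sizes come from differences of means. The 21 gene lists and the 3 files were chosen with earlier results of these data known. Named genes were the 12 highest and 12 lowest calls, the 6 set apart most in each direction in each file, and up to 8 members per list (markers, then calls by size, then by level), with exceptions marked. Sample numbers may not be separate mice, and the number of arrays limits precision. Slides were checked as batches: blood 1 and spleen 3 shared one, as did blood 2, blood 3 and spleen 1. The 2 further slides held blood 4 with spleen 4, and spleen 2.

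Alternatives covered scaling, normexp with offset 50 (limma 3.58.1, R 4.3.3), unsubtracted signal, filters, probe choice, flags and each file left out. Within-slide values, a common floor and table call counts were added after the data were seen. Python 3.11.15, pandas 2.3.3 and numpy 2.4.6 were used.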

Additional observations from a re-analysis of the deposited data

Results flagged for a closer look

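In each tissue's group of 4 samples, a value was singled out when its gap to the nearest other sample took up more of the group's range than Dixon's critical value for 4 samples allows. Of 139 levels checked in each of 2 groups, 13 were singled out in blood and 13 in spleen, and chance alone gives about 1 in 20. That rate is no yardstick here, because the files were split, and many of the genes chosen, by these same values. All are log2 levels relative to the 75th percentile.

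In blood, blood 4 stood apart from blood 1 to 3 for 6 levels. The interferon-stimulated list was at 1.89 in blood 4, and Isg15 at 1.81, Ngp at 2.01 and Ltf at 0.17, each above the other 3. Gimap3 at -5.11 and Gimap4 at -6.82 were below the other 3. Blood 1 stood above the rest for Lag3 (1.25), Siglech (0.13), Crb3 (1.67) and Plk3 (1.56). Blood 2 was above them for Klra9 (3.43) and for the erythroid list (-1.59, against -2.91 to -2.72), and blood 3 for Nr1i2 (0.95).

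In spleen, spleen 3 stood apart from the other 3 for the Ly-6C-high list (4.97, higher), Camp (6.61, higher), Cd79b (0.02, lower), Irf8 (2.87, lower), Cd200r3 (-6.63, lower), Ccs, a copper chaperone gene (0.38, lower), and Ccl3 (-3.21, lower). Spleen 4 was above the other 3 for the T cell list (-2.56), Fcrla (-3.73), Tnfrsf13c (-0.23), Siglech (-5.35), Itga2 (-2.57) and Plk3 (-1.55).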

How the results depend on the processing

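Of 83 called genes named here, all 83 kept their sign in every alternative run on the scanner files. Where a run left out a file or kept only part of the comparison files, this was fixed in advance. The values of a called gene do not overlap between the sets, so dropping files cannot turn its sign. Runs that changed scaling, background handling or probe choice could have turned it. Many of these genes were also named for the size of their call, which makes a change of sign less likely. Over the 22 alternatives on those files, the median differences of the Ly-6C-high (-2.35 to -1.95), B cell (2.27 to 3.88), NK (1.17 to 2.89) and interferon (-1.87 to -1.05) lists kept their sign. The platelet, macrophage, cell division, early response, housekeeping and sort antigen lists did not in all. No paired analysis was possible because no label ties a blood sample to a spleen sample of the same mouse, and the results come from no test. Dim values limit folds: small differences below an array's floor have no order.

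Calls higher and lower in the 3 were 413 and 300 at 4-fold and 2380 and 2556 against blood 4 alone. With normexp, 515 were higher, and 1012 were higher against blood 4. Without background subtraction, 1640 were lower against blood 4. Leaving out 1 file gave 920 to 1631 higher and 836 to 1304 lower. Against blood 4 alone, the Ly-6C-low and conventional dendritic medians were 1.14 and 1.13. Blood 1 against spleen 3, on 1 slide, gave 1.89 for class II, -3.64 for neutrophil and -1.05 for interferon genes.

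Genes set apart, higher then lower, at 2-fold were 2266 and 2308 in blood 1, 1687 and 1978 in blood 2, and 1876 and 982 in blood 3. With normexp they were 399 and 62, 282 and 230, and 116 and 107. Without background subtraction they were 345 and 51, 241 and 199, and 93 and 90. Median scaling gave 272 lower in blood 1 and 287 higher and 476 lower in blood 3, and quantile scaling 426 lower in blood 3. Median correlations between the 3 and between the 5 were 0.896 and 0.936 with normexp, 0.897 and 0.937 without subtraction, and 0.895 between the 3 with no filter.

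The value table holds other values under these 3 names. Its medians had the opposite sign for the monocyte core (0.021), Ly-6C-high (0.13), B cell (-0.05), conventional dendritic (-0.081) and interferon (0.25) lists. The levels of these lists overlapped there between the 3 columns and the 5, so the table did not separate the 3 for them. It also changed the sign of the Ly-6C-low (-0.18) and plasmacytoid dendritic (-0.093) medians, lists whose levels overlapped between the 3 files and the 5. It gave 0.003 for class II, -0.91 for neutrophil and 0.011 for basophil genes, with 55 calls higher and 93 lower among genes with no empty cell. The cause was not tested.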
